A study of Mus musculus with 18 samples.

Results

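The earliest hearts of the study, those of *Lmna*-/- and wild type (WT) mice at 1 week of age, were compared over all genes whose count exceeded 5 in every one of the 6 libraries. This rule kept 12609 of the 47069 genes in the table, against 13143 genes at 2 weeks and 12815 at 1 month. The mice were of the C57BL/6 strain and were bred in one colony from heterozygotes for the *Lmna* tm1Stw allele and their WT littermates. *Lmna*-/- mice were homozygous for this targeted germline allele, which is not limited to the heart. The sex of the mice is not given in the labels, and by sex-linked genes WT heart 3 was female and all other hearts of 1 week were male. Each genotype was represented by 3 entire hearts, 1 library per heart, rinsed in cold saline to remove blood and used without removing any part of the organ. No treatment was given, and RNA depleted of ribosomal RNA was sequenced. Since each library was 1 heart, the spread between libraries includes that between animals.

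*Lmna* encodes the A-type lamins, lamin A and lamin C, which polymerize beneath the inner nuclear membrane into the nuclear lamina, anchor chromatin there and link the nucleus to the cytoskeleton. Loss of A-type lamins in mice causes muscular dystrophy and dilated cardiomyopathy that kill within weeks of birth. The first postnatal week is also the time at which mouse cardiomyocytes leave the cell cycle, enlarge and turn from glycolysis towards fatty acid oxidation. The hearts of 1 week therefore precede the overt disease and lie within a period of rapid normal change.

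The 6 libraries held 9344185 to 25404168 counts. Mitochondrial genes took 43.7% to 62.7% of them, and 3486510 to 14309514 counts fell on nuclear genes. Levels are given in CPM, the counts of a gene scaled to a common library size after TMM normalization, and 3 counts corresponded to 0.102 to 0.434 CPM, a floor that covers counting error only. The defining genes of cardiomyocytes were abundant in all hearts, the summed level of 12 such genes being 49580 to 64800 CPM in *Lmna*-/- and 50910 to 73610 CPM in WT hearts. 3 libraries stood apart from the rest. *Lmna*-/- heart 1 had the fewest nuclear counts and the largest mitochondrial share, *Lmna*-/- heart 2 and the library labelled *Lmna*-/- replicate 3 carried genes of neighbouring organs, and the latter also had an intermediate level of *Lmna*.

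*Lmna* itself was at 13.5 and 19.5 CPM in *Lmna*-/- hearts 1 and 2 and at 38.4 CPM in the library labelled *Lmna*-/- replicate 3. The WT hearts held 63.2, 66.0 and 68.6 CPM. All *Lmna*-/- libraries lay below all WT libraries, but the 3 differed widely among themselves, at 20.4%, 29.6% and 58.2% of the WT mean. The value of replicate 3 lay between those of the other knockout libraries and the WT libraries, as did its levels of *Rps3a1* and *Rps3a3*. For *Zbtb7b*, 0.9 Mb from *Lmna* and picked for its lack of overlap, replicate 3 (12.4 CPM) stood with the other knockout libraries (12.02 and 12.6 CPM). The genotype of replicate 3 is in doubt and was not tested. Replicate 3 is kept under its label in the counts over 3 hearts. Values without it are given for *Lmna*, *Rps3a1*, the counts of genes, the spread and the genes called at 2 weeks. The log2 fold change of *Lmna* was -1.45 with a standard error of 0.31, and the adjusted p was 1 by edgeR's quasi-likelihood test with Benjamini-Hochberg adjustment (unadjusted p = 0.0016). Without the library labelled *Lmna*-/- replicate 3 the log2 fold change was -1.96 with an adjusted p of 0.0346 by the same test. Over all alternatives the adjusted p of *Lmna* ran from 0.0027 to 1. An exact two-sided permutation test on the 6 values gave p = 0.1, the smallest that 3 hearts against 3 allow. The allele leaves part of the gene in place, and counts were summed over the whole gene, so reads from the remaining exons are included in every *Lmna*-/- value.

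At the older ages the knockout hearts were more alike. *Lmna* lay at 32.7% to 47.9% of the WT mean at 2 weeks and at 28.6% to 32.5% at 1 month, so that no other library labelled *Lmna*-/- reached the 58.2% of replicate 3 at 1 week. The genotype by age interaction of *Lmna* was not called by edgeR's quasi-likelihood test with Benjamini-Hochberg adjustment (adjusted p = 0.99 against 2 weeks and 0.77 against 1 month).

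A gene on the same chromosome showed the same order of the knockout hearts as *Lmna*. *Rps3a1* encodes a protein of the small ribosomal subunit and starts 2.34 Mb from *Lmna* on chromosome 3 (ENSMUSG00000028081, 86137940 to 86142702, minus strand, GRCm38; *Lmna*, ENSMUSG00000028063, 88480147 to 88509956, minus strand). It was at 58.4 and 72.0 CPM in *Lmna*-/- hearts 1 and 2, at 146 CPM in the library labelled *Lmna*-/- replicate 3, and at 236, 207 and 217 CPM in the WT hearts. The genotypes did not overlap, and the library with the intermediate level of *Lmna* was also intermediate here, at 66.4% of the WT mean against 26.5% and 32.7%. The log2 fold change was -1.25 with a standard error of 0.30 (adjusted p = 1, edgeR quasi-likelihood test, Benjamini-Hochberg). Without replicate 3 it was -1.75 with an adjusted p of 0.0346 by the same test.

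*Rps3a3*, a processed copy of *Rps3a1* on chromosome 13 (ENSMUSG00000059751, 108670603 to 108671397, plus strand), showed the converse. It had 407, 1985 and 432 counts in the *Lmna*-/- libraries and 2, 3 and 4 counts in the WT libraries, and so failed the filter. These counts were 58.9, 67.8 and 33.4 CPM in the *Lmna*-/- libraries, and the lowest of the 3 was again that of replicate 3. It was the only gene of the whole table with more than 20 counts in each library of one genotype and at most 5 in each library of the other. *Rps3a2*, a second copy on chromosome 14, was at 4.1, 5.8 and 2.6 CPM in the *Lmna*-/- libraries and at 0.44, 0.22 and 0.31 CPM in the WT ones. The copies are close to identical to their parent, so reads can be told apart at few positions. The *Rps3a3* transcript of 795 bases matched positions 134 to 928 of the *Rps3a1* transcript with 9 mismatches (98.9% identity, longest identical run 215 bases), and that of *Rps3a2* matched over 792 bases with 4 mismatches. The stretch of 180 bases that holds most differences between *Rps3a1* (transcript positions 317 to 496) and *Rps3a3* (positions 184 to 363) is shown to make this visible, with the 3 differing bases in capitals. Both are from GENCODE M21 on GRCm38.

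Rps3a1: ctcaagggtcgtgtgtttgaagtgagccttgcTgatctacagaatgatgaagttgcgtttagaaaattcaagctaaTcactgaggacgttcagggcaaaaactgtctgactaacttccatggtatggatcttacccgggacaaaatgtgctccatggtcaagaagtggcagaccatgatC

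Rps3a3: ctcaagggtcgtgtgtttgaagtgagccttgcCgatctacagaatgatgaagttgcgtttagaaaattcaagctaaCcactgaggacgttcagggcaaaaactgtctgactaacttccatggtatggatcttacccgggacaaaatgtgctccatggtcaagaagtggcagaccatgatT

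Given this likeness, the split of reads between both genes is uncertain. *Rps3a3* took 50.2% and 48.5% of the summed level of the pair in *Lmna*-/- hearts 1 and 2, 18.6% in the library labelled *Lmna*-/- replicate 3, and 0.041% to 0.142% in WT hearts. The sum itself was lower in the *Lmna*-/- libraries, at 117, 140 and 180 CPM against 236, 207 and 218 CPM in WT hearts. At 2 weeks the share was 44.1% to 45.9% in *Lmna*-/- and 1.43% to 1.93% in WT hearts, and at 1 month it was 47.1% to 49.3% and 0.341% to 0.518%. Of the 9 knockout libraries of the series, replicate 3 of 1 week was the only one whose share lay under 44.1%.

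**Figure D1:**
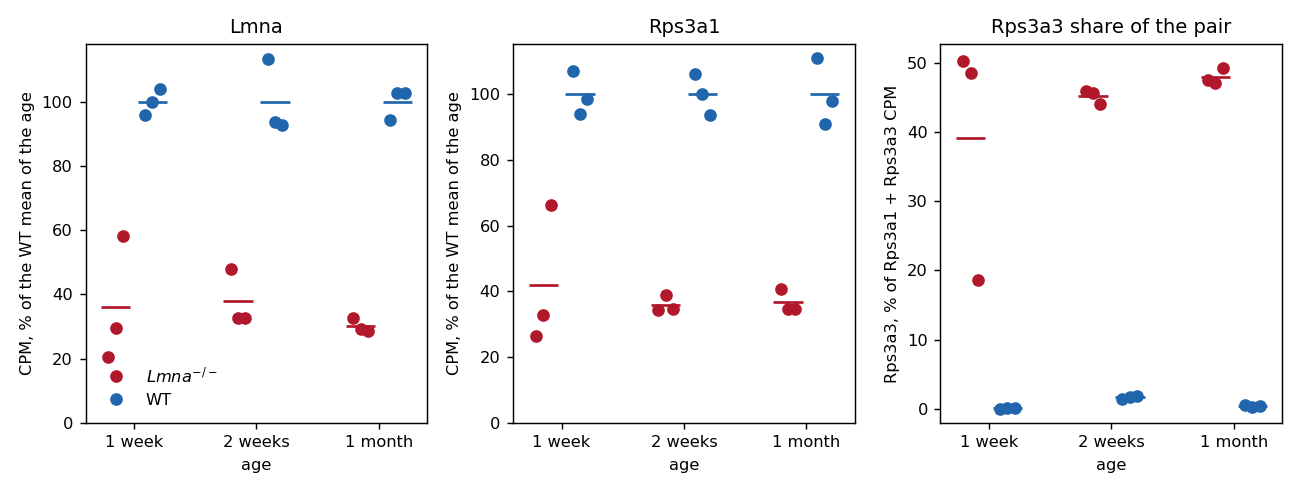
The left and middle panels plot *Lmna* and *Rps3a1* CPM of each heart as a percent of the WT mean of its age, and the right panel plots *Rps3a3* as a percent of the summed *Rps3a1* and *Rps3a3* CPM; each point is 1 heart (red *Lmna*-/-, blue WT, in order of replicate number) and lines are means of 3 hearts. The third *Lmna*-/- point of 1 week stands at 58.2%, 66.4% and 18.6%, between the other *Lmna*-/- hearts and the WT hearts in each panel.

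Around *Lmna*, 98 tested genes started within 5 Mb, and for 11 of them (11.2%, against 7.91% of the 12511 other tested genes) the values of *Lmna*-/- and WT hearts did not overlap. *Lmna* itself, the targeted gene, is counted in both the 98 and the 11, and the shares were not compared by a test. *Zbtb7b*, which encodes a zinc finger transcription factor known from the CD4 T cell lineage, was at 12.02, 12.6 and 12.4 CPM in *Lmna*-/- and at 8.51, 8.87 and 8.80 CPM in WT hearts. Relative to the mean, its SD was the smallest in both genotypes among the 20 genes of smallest p in either direction, at 12.3 ± 0.275 CPM against 8.73 ± 0.190 CPM (SD, n = 3), and its log2 fold change was 0.50 with a standard error of 0.11. Of the others in the window, *Tlr2*, a receptor for bacterial lipoproteins (log2 fold change 0.90), *Adar*, an RNA-editing deaminase (0.29), *Jtb* (0.21), *Ubqln4* (0.18) and *Prcc* (0.09) were higher in all *Lmna*-/- libraries. *Lrba* (-0.21), *Arhgef11* (-0.11) and *Naxe* (-0.07) were lower in all. Apart from *Tlr2* and *Zbtb7b*, the differences of these genes were at most 0.29 log2 units.

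Among the other genes of the nuclear lamina and envelope no difference was detectable. Of 32 listed genes 31 were tested, 15 higher and 16 lower in *Lmna*-/- hearts, with a median log2 fold change of -0.016 against 0.0032 over all genes. Apart from *Lmna* their log2 fold changes lay between -0.10 and 0.33, and *Lmna* alone had an unadjusted p under 0.05, against 2.4% of all genes. The B-type lamin *Lmnb1* was at 16.8, 43.1 and 48.2 CPM in *Lmna*-/- and at 38.2, 32.7 and 46.2 CPM in WT hearts. The lamin B receptor *Lbr* was at 25.4, 30.4 and 36.0 CPM against 31.0, 31.7 and 30.7 CPM, and emerin (*Emd*), an inner membrane partner of lamin A, at 11.0, 13.9 and 12.3 CPM against 12.6, 12.2 and 11.6 CPM. The genotypes overlapped in each, and all 3 genes were lowest in *Lmna*-/- heart 1. *Syne3*, which encodes a nesprin of the outer nuclear membrane, had the next smallest p after *Lmna* (log2 fold change 0.33, standard error 0.18, unadjusted p = 0.104, adjusted p = 1 by edgeR). *Tor1aip2*, an activator of torsin at the nuclear envelope, was the only gene of the list besides *Lmna* without overlap, at 64.6, 70.2 and 70.8 CPM against 64.3, 64.3 and 64.4 CPM. Its nearest values, 64.6 and 64.4 CPM, were almost the same, and 7.93% of all genes were without overlap.

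Across all 12609 genes edgeR's quasi-likelihood test with Benjamini-Hochberg adjustment called 0 (0%) at an adjusted p under 0.05, against 990 (7.53%) at 2 weeks and 1249 (9.75%) at 1 month. An unadjusted p under 0.05 was found for 302 genes (2.4%), of which 222 (1.76%) were higher and 80 (0.634%) lower in *Lmna*-/- hearts. DESeq2 called 3 genes, *Ces1d*, *Lmna* and *Rps3a1*. Without the library labelled *Lmna*-/- replicate 3 edgeR called 3 genes, *Lmna*, *Rps3a1* and *F830016B08Rik*, and 439 had an unadjusted p under 0.05. For 1000 genes (7.93%) the genotypes did not overlap, 526 (4.17%) with all *Lmna*-/- hearts higher and 474 (3.76%) with all lower. Without replicate 3 these were 1218 higher and 1161 lower, over fewer hearts. With library size alone in place of TMM the split was 110 higher and 377 lower, and the median of all genes stood at -0.089 on the log2 scale.

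The 10 genes higher in all *Lmna*-/- hearts with the smallest p included transporters, enzymes and motor proteins at low levels. *Slc15a2*, a peptide transporter, was at 3.33, 3.69 and 2.86 CPM against 1.06, 1.61 and 1.24 CPM in WT hearts (log2 fold change 1.36, standard error 0.24). *Ces1d*, a carboxylesterase that hydrolyses triglycerides and one of a family of similar genes, was at 4.49, 10.9 and 4.64 CPM against 0.967, 0.660 and 2.09 CPM (2.52, standard error 0.49). *H2-Eb1*, a chain of MHC class II, was at 1.88, 2.63 and 1.70 CPM against 0.919, 0.806 and 0.927 CPM (1.27, standard error 0.27). In these 3 genes every *Lmna*-/- heart lay clear of the WT hearts, and heart 2 was the highest. *Mettl7a1* (0.83), *Cyp4b1*, a cytochrome P450 (0.66), and *Tmc5* (1.29) and *Myo5c*, a myosin of epithelial cells (1.02), also stood highest in heart 2. *Dnah6*, a dynein chain of motile cilia, was at 1.30, 16.1 and 4.26 CPM against 0.339, 0.879 and 0.463 CPM. Its high level was in the heart that also carried other genes of ciliated airway cells, and the part of such tissue in its value was not tested. *F830016B08Rik* was at 11.6 and 17.3 CPM in *Lmna*-/- hearts 1 and 2, at 1.63 CPM in the library labelled *Lmna*-/- replicate 3, and at 0.677, 1.47 and 0.927 CPM in WT hearts. The third library stood next to the WT hearts for this gene too.

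After *Lmna* and *Rps3a1*, the genes lower in all *Lmna*-/- hearts with the smallest p were *D7Ertd443e* (log2 fold change -0.96) and the sense-intronic *Gm43260* (-0.81), both under 3 CPM in every heart. Others were at higher levels with smaller differences. *Hif1a*, the oxygen-regulated subunit of hypoxia-inducible factor, was at 122, 129 and 124 CPM in *Lmna*-/- and at 141, 163 and 151 CPM in WT hearts (log2 fold change -0.28, standard error 0.09). *Aspn*, which encodes the matrix proteoglycan asporin, was at 106, 118 and 109 CPM against 130, 132 and 140 CPM (-0.27, standard error 0.09). The nearest values of the genotypes, 129 and 141 CPM for *Hif1a* and 118 and 129.6 CPM for *Aspn*, lay close together. *Tmeff1* (-0.39), *Chn1*, a Rac GTPase-activating protein (-0.34), and *Evi5* (-0.26) were of the same order, and the antisense RNA *4631405J19Rik* had -0.50. Whether counting used strand is not given in the sources used here, so reads of the antisense RNA and its partner cannot be told apart. The 20 genes had unadjusted p values of 0.00048 to 0.0188 and an adjusted p of 1 in edgeR's test.

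The spread among knockout hearts was larger than that among WT hearts. The biological coefficient of variation, the relative spread between hearts beyond counting error, was 0.196 among the 3 *Lmna*-/- hearts and 0.123 among the 3 WT hearts. For 8597 genes (68.2%) the SD on the log2 scale was larger among *Lmna*-/- hearts, and it was over 1 for 230 genes against 61 among WT hearts. Leaving out heart 1 lowered it most, since the coefficient was 0.134 without *Lmna*-/- heart 1, 0.217 without heart 2 and 0.233 without the library labelled *Lmna*-/- replicate 3. Leaving out WT heart 2 lowered the coefficient of the WT hearts to 0.0858. In root mean square difference over all tested genes, the library labelled *Lmna*-/- replicate 3 was at 0.328, 0.395 and 0.330 log2 units from the WT hearts, against 0.55 and 0.368 from *Lmna*-/- hearts 1 and 2. *Lmna*-/- heart 2 was nearest to WT heart 1 (0.335) and *Lmna*-/- heart 1 to WT heart 2 (0.439), so each knockout heart was nearer to a WT heart than to another knockout heart.

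Each heart was then described by the genes in which it stood more than 1 log2 unit beyond the nearest of the other 5. A gene counted as highest only with over 20 counts in that heart, and as lowest only with over 20 in each other heart. *Lmna*-/- heart 2 was the highest in 466 genes and the lowest in 0, *Lmna*-/- heart 1 was the lowest in 220 and the highest in 19, and each of the other 4 hearts stood apart in 8 to 18 genes. Of the 466 genes 175 were over 2 log2 units beyond the next heart. Most genes far from the other hearts were thus those of 1 of the 3 knockout hearts. *Lmna*-/- heart 2 was the deepest library (14309514 nuclear counts) and *Lmna*-/- heart 1 the shallowest (3486510). The part of depth in these numbers of genes was not tested.

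**Figure D2:**
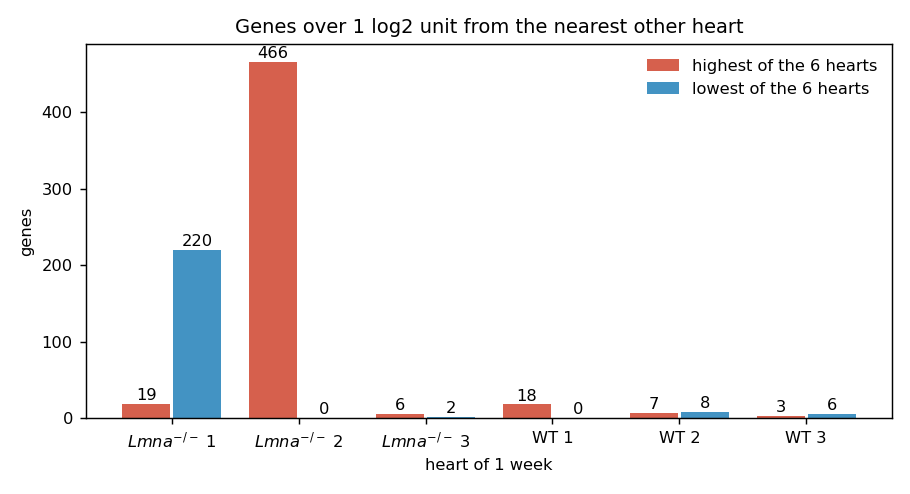
For each heart of 1 week the bars count the genes in which it was the highest (red) or the lowest (blue) of the 6 hearts by more than 1 log2 unit of CPM from the nearest other heart. Genes entered only with over 20 counts in the heart where it was highest, or in all the others where it was lowest. *Lmna*-/- heart 2 has 466 genes above the others and *Lmna*-/- heart 1 has 220 below them, while no other bar exceeds 19.

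In *Lmna*-/- heart 2 the 5 genes furthest from the other hearts were *Krt4* and *Krt13*, keratins of the oesophageal and oral lining, *Myh1*, a fast skeletal muscle myosin, *Psca*, and *Sftpc*, the surfactant protein made by alveolar cells of the lung. They were at 71.8, 51.6, 38.2, 10.9 and 20.9 CPM in this heart, and the highest value in any other heart was 0.23 CPM. The marker lists of neighbouring organs followed. The summed level of 11 lung genes was 156 CPM in heart 2, 27.8 CPM in the library labelled *Lmna*-/- replicate 3, 0.72 CPM in *Lmna*-/- heart 1 and 0.62 to 0.82 CPM in WT hearts, and 5 of the 11 genes had no read in any WT heart. Among them *Scgb1a1*, the secretoglobin of club cells in the airway, was at 111 and 24.7 CPM in both libraries and at 0.145 CPM in *Lmna*-/- heart 1. *Scgb1a1* alone thus made up most of the 27.8 CPM of replicate 3. There the alveolar genes *Sftpc* (0.077 CPM against 20.9 CPM in heart 2), *Sftpb* (0.155 against 3.31 CPM) and *Slc34a2* (0.155 against 6.31 CPM) were low and *Cldn18* had no read. *Sftpa1* (0.542 against 5.09 CPM) and *Sftpd* (0.697 against 2.63 CPM) were read in replicate 3 and in no WT heart. *Ager* was at 0.774 CPM in replicate 3 and at most 0.193 CPM in WT hearts. The lung list was thus highest in heart 2, and apart from *Scgb1a1* its genes were at low levels in replicate 3.

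Genes of airway epithelium and cartilage were high in both *Lmna*-/- heart 2 and replicate 3. Their summed level was 312 CPM in *Lmna*-/- heart 2 and 289.5 CPM in the library labelled *Lmna*-/- replicate 3, against 10.3 CPM in *Lmna*-/- heart 1 and 16.7, 17.0 and 25.2 CPM in WT hearts. *Scgb3a2*, a secretoglobin of the bronchi, was at 163 and 51.3 CPM and at most 0.232 CPM in the other 4 hearts. *Foxj1*, the regulator of motile cilia, was at 6.48 and 1.78 CPM and at or under 0.145 CPM in the others. *Col2a1*, the collagen of cartilage, was higher in replicate 3, at 158 CPM, than in heart 2, at 84.9 CPM, and at 0.43 to 1.24 CPM in the others. Without *Lmna*-/- heart 1 edgeR called 4 genes, *Chad*, *Col11a2* and *Col9a1* of cartilage and *Cbr2*, an enzyme abundant in lung, with log2 fold changes of 2.60, 2.42, 2.58 and 4.63 and adjusted p values of 0.0338, 0.0338, 0.0338 and 0.048 (Benjamini-Hochberg). In heart 1 all of them were within the WT range or, for *Col9a1* (1.16 against 2.20 to 3.09 CPM), below it. Leaving out this heart thus left the 2 libraries that carried cartilage and airway genes, and their part in these 4 values was not tested.

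Skeletal muscle and liver genes were high in heart 2 alone. The 16 skeletal muscle genes summed to 329.5 CPM there and to 11.2 to 22.4 CPM in the other 5 hearts, with *Myh8*, the perinatal myosin, at 147 CPM against 1.30 to 6.72 CPM. The 11 liver genes summed to 54.2 CPM there and to 2.61 to 7.11 CPM elsewhere, with *Alb*, serum albumin, at 26.5 CPM against at most 0.62 CPM. The neutrophil list was also high in 2 libraries (38.8 and 23.3 CPM against 0.72 to 2.37 CPM), but through 1 gene. *Ltf*, lactoferrin, which secretory glands also make, was at 37.1 and 21.8 CPM, while *S100a8* and *S100a9* were at most 0.677 CPM in all hearts and *Elane* and *Mpo* had no read in any.

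In the library labelled *Lmna*-/- replicate 3 the gene furthest apart was *Tg*, thyroglobulin of the thyroid, at 149 CPM against 3.15 to 4.94 CPM in the other hearts. *Gp2* and *A2ml1* followed at 3.1 and 7.97 CPM, and *Lmna*-/- heart 2 came next at 1.13 and 3.21 CPM. *Bmp10*, a growth factor of the atria, stood apart in the other direction at 0.232 CPM.

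**Figure D3:**
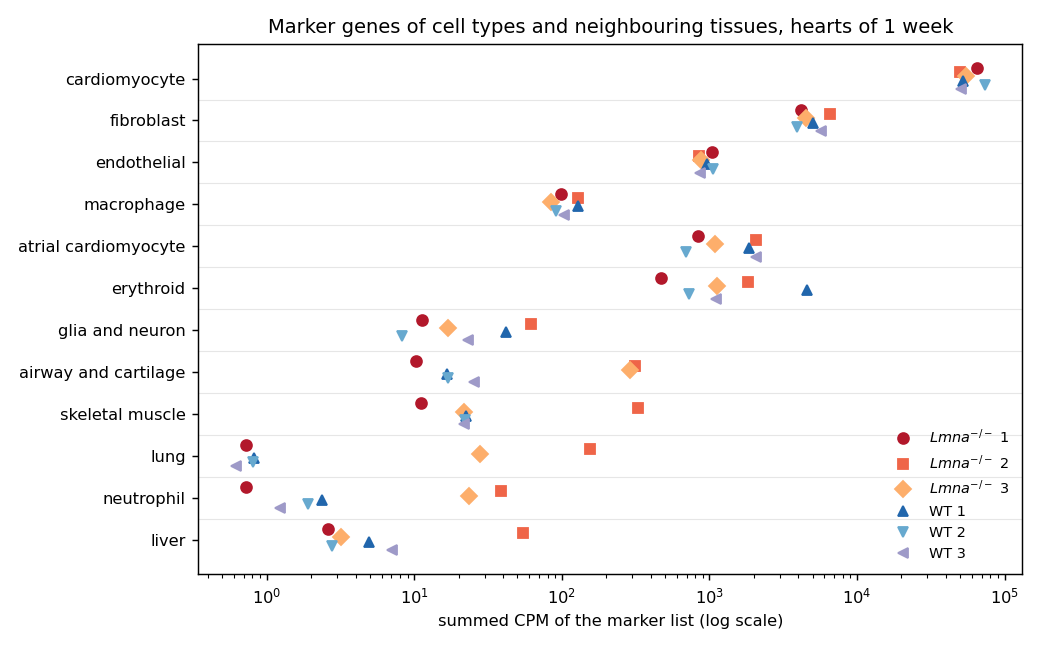
Summed CPM (log axis) of the genes of each marker list in each of the 6 hearts of 1 week, with 1 symbol per heart. The airway and cartilage list is high in *Lmna*-/- 2 and 3 (312 and 289.5 CPM), the lung list in *Lmna*-/- 2 (156 CPM) and, through *Scgb1a1* (24.7 of 27.8 CPM), in 3, skeletal muscle and liver in *Lmna*-/- 2 alone (329.5 and 54.2 CPM), whereas in the cardiomyocyte, endothelial and macrophage lists the *Lmna*-/- and WT hearts lie among each other.

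None of the 20 marker lists separated the genotypes, since at least 1 *Lmna*-/- heart lay within the WT range or beyond it on the other side in each. The exact two-sided permutation p was 0.2 or more for every list, and the Benjamini-Hochberg adjusted p over the lists was 1. In bulk tissue fewer cells of a type and less RNA per cell cannot be told apart. The endothelial genes summed to 851 to 1038 CPM in *Lmna*-/- and to 859 to 1051 CPM in WT hearts, the macrophage genes to 84.8 to 128 CPM and 91.7 to 129 CPM, and the fibroblast genes to 4201 to 6599 CPM and 3926 to 5727 CPM. Smooth muscle genes ran from 378 to 772 CPM and from 589 to 632 CPM, lymphatic endothelial genes from 114 to 160 CPM and from 114 to 125 CPM, and ventricular genes from 4134 to 5159 CPM and from 4890 to 6034 CPM. Brown fat genes summed to 136 to 185 CPM and 111 to 138 CPM and white fat genes to 311 to 369 CPM and 257 to 376 CPM. Both sums were carried by genes abundant in every heart, *Fabp4*, a fatty acid binding protein (249.7 to 373 CPM), and *Cox7a1*, a subunit of cytochrome oxidase (56.5 to 77.0 CPM). *Ucp1* and several white fat genes were higher in *Lmna*-/- heart 2 and replicate 3. *Ucp1*, the uncoupling protein of brown fat, was at 60.8 and 33.6 CPM there, at 0 in *Lmna*-/- heart 1 and at 15.9, 0.44 and 9.65 CPM in WT hearts. *Adipoq*, adiponectin, was at 5.43 and 3.72 CPM against 0 and 1.40, 0.073 and 0.85 CPM, *Plin1*, which coats lipid droplets, at 8.60 and 4.26 CPM against 0 and 1.60, 0.073 and 1.0 CPM, and *Pck1* at 11.3 and 10.9 CPM against 0 and 2.56, 0.073 and 1.78 CPM. *Cidec* (3.24 and 1.86 CPM against at most 0.774 CPM in WT hearts) and *Otop1* of the brown fat list (2.01 and 1.32 against at most 0.532 CPM) did likewise. So did *Lep* and *Cfd* at lower levels, whereas *Fabp4*, *Retn*, *Slc36a2* and *Adrb3* of the white fat list did not. The genes with this pattern thus stood above the WT hearts in the same 2 libraries as airway and cartilage genes and were without a read in heart 1. Thymus genes stayed between 4.63 and 11.3 CPM and B cell genes between 1.01 and 2.42 CPM.

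The hearts also differed in their share of atrial genes, without regard to genotype. *Bmp10* was at 126 CPM in *Lmna*-/- heart 2 and at 131 and 146 CPM in WT hearts 1 and 3, and at 3.19, 0.232 and 1.98 CPM in *Lmna*-/- heart 1, the library labelled *Lmna*-/- replicate 3 and WT heart 2. *Nppa*, atrial natriuretic peptide, was at 23.2, 161 and 67.6 CPM in *Lmna*-/- and at 136, 11.1 and 150 CPM in WT hearts, and *Myl7*, the atrial myosin light chain, at 101, 394 and 155 CPM and 303, 60.7 and 392 CPM. The summed level of 8 atrial genes was 837, 2060 and 1084 CPM against 1849, 695 and 2065 CPM. In each of these genes the same 3 hearts, 1 *Lmna*-/- and 2 WT, were the highest. Genes of glia and neurons were highest in the same 3 hearts (11.3, 62.0 and 16.8 CPM against 41.7, 8.28 and 23.0 CPM). Epicardial and mesothelial genes, also highest in these hearts, summed to 36.5, 117 and 55.1 CPM against 103, 37.1 and 59.0 CPM.

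Blood remained in unequal amounts. Erythroid genes summed to 471, 1837 and 1128 CPM in *Lmna*-/- hearts and to 4556, 726 and 1111 CPM in WT hearts, and *Hbb-bs*, the adult beta globin and one of a set of closely alike genes, was at 3058 CPM in WT heart 1 against 327 to 1136 CPM elsewhere. WT heart 3 differed from the other 5 hearts in sex-linked genes, with *Xist* at 253.5 CPM against at most 0.72 CPM and *Ddx3y* at 0.077 CPM against 61.0 to 80.5 CPM. *Eif2s3y*, *Kdm5d* and *Uty* had no read in WT heart 3. By these genes WT heart 3 was female and the other 5 hearts were male. Sex was thus not balanced between the genotypes, and its part in the differences was not tested. WT heart 2 stood apart in *Gm28661* (109 CPM against 6.0 to 9.86 CPM), *Vdac3-ps1* (10.9 CPM against at most 1.20 CPM), *Sbk3* (3.22 CPM against 16.8 to 27.5 CPM), *Atf3*, a stress-induced transcription factor (21.2 CPM against 2.90 to 4.88 CPM), and *Sln*, the atrial sarcolipin (2.42 CPM against 9.13 to 26.7 CPM). WT heart 1 had *Smt3h2-ps* at 2.08 CPM, with no read in the other hearts, and the erythroid *Trim10* at 6.04 CPM against at most 1.98 CPM.

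Cell cycle genes set *Lmna*-/- heart 1 apart. All 35 tested genes of mitosis were lowest in this heart, as were 37 of 39 genes of DNA replication. The median difference from the WT hearts on the log2 scale was -1.43 for mitosis and -1.0 for replication in *Lmna*-/- heart 1, 0.041 and -0.039 in heart 2, and 0.589 and 0.223 in the library labelled *Lmna*-/- replicate 3. Each WT heart set against the other 2 gave 0.294, -0.385 and 0.138 for mitosis. The 3 knockout hearts therefore lay below, among and above the WT hearts.

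The same order was seen gene by gene. *Mki67*, a marker of cycling cells, was at 116, 267 and 346 CPM in *Lmna*-/- and at 301, 243 and 283 CPM in WT hearts. *Ccnb1*, cyclin B1, was at 9.56, 26.9 and 47.2 CPM against 33.3, 24.1 and 32.5 CPM, and *Cdk1*, its kinase, at 12.5, 30.4 and 45.8 CPM against 35.4, 23.8 and 35.4 CPM. *Mcm5*, of the replicative helicase, was at 7.82, 24.4 and 27.2 CPM against 25.5, 23.7 and 25.9 CPM. *Lmna*-/- heart 1 was lowest and the library labelled *Lmna*-/- replicate 3 highest in all 4. *Uhrf1*, which maintains DNA methylation at replication, was among the genes furthest apart, at 3.91 CPM in *Lmna*-/- heart 1 against 23.1 to 36.5 CPM, beside *Car3* (0.145 CPM against 2.64 to 43.4 CPM), *Epha3* (0.434 CPM against 3.15 to 6.96 CPM) and *Adra1a*, an alpha-1 adrenergic receptor that was higher in this heart (6.81 CPM against 0.387 to 1.17 CPM). Taken over the 3 hearts, no gene of either list had an unadjusted p under 0.05, and 2 genes, against 7.93% of all genes, were without overlap, the origin recognition subunits *Orc6* (log2 fold change -0.41) and *Orc4* (-0.24). Depth and mitochondrial share moved with this heart, which had 3486510 nuclear counts and 62.7% of all counts on mitochondrial genes against at most 49.7% in the other hearts. Their part in the cell cycle values was not tested.

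Other lists also had their extreme in *Lmna*-/- heart 1. Genes of DNA damage response and repair had a median of -0.629 there, against -0.004 and 0.201 in the other *Lmna*-/- libraries, and the fetal gene programme had -1.01 against 0.192 and 0.191. Glycolytic genes stood at -0.453 there and between -0.142 and 0.102 in the other 5 hearts. FOXO targets stood at 0.412, glucocorticoid response genes at 0.393 and genes of calcium handling and ion channels at 0.322, each beyond every other heart. The genes that differ between older WT hearts were also followed. Between 2 weeks and 1 month 4908 of 12547 genes (39.1%) were called in WT hearts by edgeR (adjusted p under 0.05), and of those tested at 1 week the 2371 that rose had a median of 0.106 in *Lmna*-/- heart 1 and the 2430 that fell had -0.14. In the other 5 hearts these medians lay between -0.028 and 0.027, so *Lmna*-/- heart 1 alone was beyond the WT hearts in both.

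**Figure D4:**
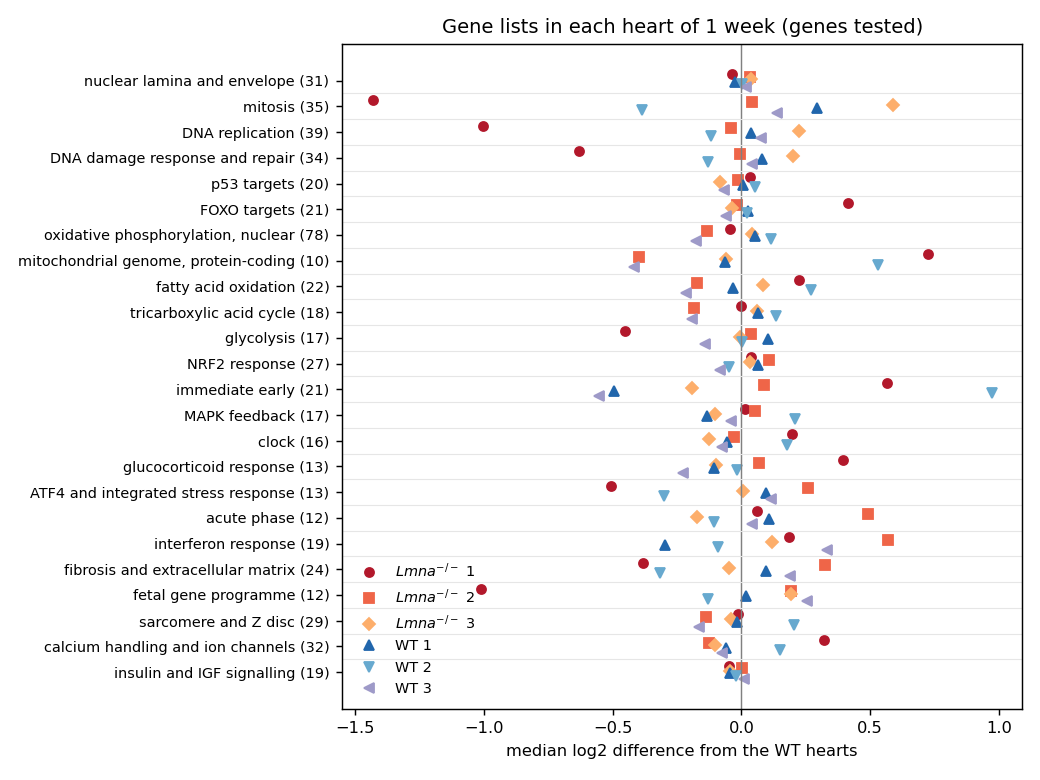
Median log2 difference from the WT hearts of the tested genes of each list (number in parentheses), with 1 symbol per heart of 1 week; WT hearts are set against the other 2 WT hearts. *Lmna*-/- 1 lies at -1.43 for mitosis and -1.0 for DNA replication, whereas the nuclear lamina list lies near 0 in every heart.

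Compared by genotype over all 3 hearts, the lists differed little. The 78 nuclear genes of oxidative phosphorylation had a median log2 fold change of -0.041, with 60 lower in *Lmna*-/- hearts and 2 (*Ndufa12*, -0.26, and *Atp5l*, -0.23) at an unadjusted p under 0.05, a share near the 2.4% of all genes. All tricarboxylic acid cycle genes but 1 of 18 and all glycolytic genes but 1 of 17 were lower, at medians of -0.066 and -0.11, and 18 of 22 fatty acid oxidation genes were higher, at 0.057, while 50.9% of all tested genes were higher. In each of these 4 lists the medians of the single WT hearts were further from each other than the genotypes were, and no member of the last 3 lists had an unadjusted p under 0.05. From the mitochondrial genome 10 of 13 listed genes that encode proteins were tested, 9 of them higher, with *mt-Co3* at 8.54, 8.70 and 5.57 CPM against 6.33, 4.69 and 2.70 CPM. Their heart medians were highest in *Lmna*-/- heart 1 (0.723) and WT heart 2 (0.53). The levels of *mt-Co3* were low beside the 43.7% to 62.7% of counts that fell on mitochondrial genes. Only uniquely mapped reads outside ambiguous regions were counted, and the part of this rule in the levels was not tested.

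Genes of the interferon response were mostly higher in *Lmna*-/- hearts. Of 19 tested genes 18 were higher, 3 of them at an unadjusted p under 0.05 (1.76% of all genes were higher at this p), and the median log2 fold change was 0.394. *Irf7*, which amplifies the response, was at 1.45, 3.69 and 2.56 CPM against 1.01, 1.54 and 1.85 CPM, and *Ifi44* at 2.03, 2.05 and 2.17 CPM against 0.725, 1.76 and 1.24 CPM. The heart medians were 0.184, 0.571 and 0.118 in *Lmna*-/- and -0.296, -0.089 and 0.332 in WT hearts, so that only *Lmna*-/- heart 2 lay beyond the WT hearts. Acute phase genes showed the same heart at 0.492, against -0.173 to 0.108 in the others, with *Cebpb* at 0.869, 1.54 and 0.697 CPM against 0.435, 0.733 and 0.618 CPM.

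The remaining lists gave single genes at an unadjusted p under 0.05 or without overlap. Of all genes 2.4% had such a p and 7.93% were without overlap, and no list was tested against these shares. Of the fetal gene programme, *Dlk1*, an imprinted growth regulator, was at 3.91, 11.5 and 8.98 CPM against 4.21, 3.88 and 4.09 CPM, and *Myh7*, the fetal beta myosin heavy chain, at 45.2, 50.1 and 97.9 CPM against 82.7, 96.4 and 142 CPM (log2 fold change -0.73, standard error 0.31). Both overlapped between genotypes. *Arntl*, which encodes the clock factor BMAL1, did not, at 10.1, 9.90 and 9.13 CPM against 8.22, 7.18 and 7.03 CPM (0.37), nor did *Ier3* of the immediate early genes, at 8.69, 11.3 and 9.52 CPM against 7.11, 7.84 and 8.49 CPM (0.35), *Fhl2*, a LIM protein of the Z disc (-0.24), and the MAPK phosphatase *Dusp4* (0.41). Immediate early genes as a list were highest in WT heart 2 (median 0.971), with -0.495 and -0.553 in the other WT hearts. The p53 targets (median 0.028), NRF2 response (0.024), MAPK feedback (-0.018), insulin and IGF signalling (0.015), sarcomere and Z disc (-0.035), extracellular matrix (0) and integrated stress response (0.035) lists had medians near that of all genes. Members of these 7 lists with an unadjusted p under 0.05 numbered 1, *Myh7*, against 2.4% of all genes. The median log2 fold change was -0.022 for the clock, -0.015 for the calcium and ion channel, -0.024 for the mitosis, -0.08 for the DNA damage, -0.121 for the fetal and -0.155 for the DNA replication list. It was 0.158 for the acute phase, 0.183 for the FOXO, 0.199 for the glucocorticoid, 0.2 for the mitochondrial genome and 0.248 for the immediate early list.

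The genes called at the later ages were followed back to the hearts of 1 week, which took no part in choosing them. Of the 990 genes called at 2 weeks 951 were tested at 1 week, and 634 of them (66.7%) differed in the same direction, against 57.3% of all genes tested at both ages. Their median log2 fold change signed by the later direction was 0.068. The share in the same direction was 51.0% without *Lmna*-/- heart 1, where that of all genes was 55.3%. It was 75.1% without the library labelled *Lmna*-/- replicate 3, where that of all genes was 58.9%. In *Lmna*-/- heart 1 the genes later lower had a median of -0.493, and in *Lmna*-/- heart 2 and replicate 3 they had -0.042 and 0.140. WT heart 2, set against the other WT hearts, also stood in the direction of the knockout, at -0.12. The 3 knockout hearts thus stood on both sides of the WT hearts for the genes that were lower at 2 weeks.

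Of the 1249 genes called at 1 month 1205 were tested at 1 week, and 718 (59.6%) differed in the same direction, against 53.5% of all genes. Without *Lmna*-/- heart 2 the share was 45.9%, against 48.9% of all genes, and without WT heart 2 it was 50.6%, against 51.1%. The median of the genes later lower was 0.037 in *Lmna*-/- heart 1, -0.115 in heart 2 and -0.006 in replicate 3. WT hearts 1, 2 and 3, each set against the other WT hearts, stood at -0.0056, 0.098 and -0.090. GC content moved with *Lmna*-/- heart 2, whose deviations had a rank correlation of 0.34 with the GC content of the genes, against -0.118 to 0.057 in the other 5. With a GC correction the share was 58.5%, against 53.2% of all genes, and that of the 2-week genes was 60.8%, against 53.6%.

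**Figure D5:**
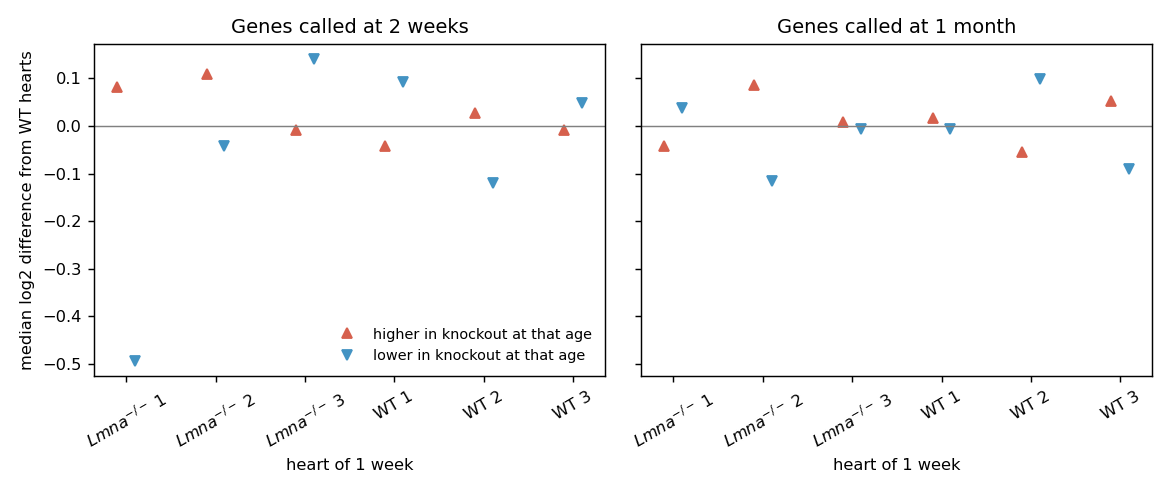
Median log2 difference from the WT hearts, in each heart of 1 week, of the genes called at 2 weeks (left, 951 genes) and at 1 month (right, 1205 genes), split into those higher (red) and lower (blue) in the knockout at that age; WT hearts are set against the other 2 WT hearts. *Lmna*-/- 1 stands at -0.493 for genes lower at 2 weeks, while replicate 3 stands at 0.140.

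Genes called at both later ages in the same direction numbered 96, beside 990 called at 2 weeks and 1249 at 1 month. At 1 week 62 of the 93 tested without *Lmna* (66.7%) differed in that direction. The share of all genes was 57.3% for the direction of 2 weeks and 53.5% for that of 1 month. For these 96 genes the share was not computed with a heart left out. Of the 8 of these 96 genes with the smallest p at the later ages, *Rps3a1* and *Lmna* differed alike at all 3 ages. At 1 week *Dusp5*, a phosphatase of ERK, had a log2 fold change of -0.13 against 1.90 and 1.02 at 2 weeks and 1 month, *Pcdh12* 0.03 against -0.50 and -0.91, *Akap5* 0.50 against -0.88 and -1.51, *Spock2* 0.20 against 1.49 and 1.22, and the syndecan *Sdc4* 0.13 against 0.99 and 0.64. *Serpina3n* was not tested at 1 week. None of the 7 tested genes was called in the interaction with age.

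For 41 of 12921 genes (0.317%) the genotypes did not overlap at any of the 3 ages and lay in the same order, 15 higher and 26 lower in *Lmna*-/- hearts, and edgeR called 6 of them at both later ages. These 6, picked after their values were seen, were *Lmna*, *Rps3a1*, *Cav1*, the caveola protein, *Tpm4*, a tropomyosin, *Rasd1*, a Ras-like GTPase, and *Hspb1*, a small heat shock protein. *Cav1* was at 349.6, 334.9 and 359.5 CPM against 375.6, 416.7 and 369.6 CPM at 1 week, with log2 fold changes of -0.15, -0.36 and -0.44 at the 3 ages. *Hspb1* was at 37.8, 43.2 and 43.7 CPM against 35.8, 35.5 and 37.1 CPM, with 0.21, 0.55 and 0.68. *Tpm4* had -0.25, -0.55 and -0.61, and *Rasd1* 0.63, 1.10 and 1.5. The sizes at 1 week were the smallest of the 3 ages in these 4 genes, and none was called at 1 week. Since the genes were picked by their calls at the later ages, and 0 genes were called at 1 week, this order is no result about them. *Rps3a2* and *Rps3a3* were also among the 41.

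The difference between the ages was tested as an interaction of genotype and age over 12 hearts. Against 2 weeks edgeR called 7 of 12231 genes (0.0572%) and against 1 month 7 of 12139 (0.0577%), both tests sharing the 6 hearts of 1 week. Against 1 month 0 genes were called without WT heart 1 or without WT heart 3 (1270 and 1296 at an unadjusted p under 0.05), and against 2 weeks 180 without *Lmna*-/- heart 1. *Nr4a2*, an immediate early nuclear receptor, was at 2.32, 2.18 and 2.17 CPM against 1.98, 4.03 and 2.08 CPM at 1 week, with a log2 fold change of -0.27 there and 3.63 at 2 weeks (adjusted p of the difference 0.0035, edgeR, Benjamini-Hochberg). *Myh7* went from -0.73 at 1 week to 4.30 at 1 month (adjusted p of the difference 0.0349), and *Ces1d* from 2.52 to -1.01 (adjusted p of the difference 0.0349). At 1 week the genotypes overlapped for *Nr4a2*, whose negative value rested on WT heart 2 (4.03 CPM), and for *Myh7*, and they did not overlap for *Ces1d*.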

How the data were processed

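Total RNA of 18 entire mouse hearts was sequenced as stranded libraries depleted of ribosomal RNA, and the 6 hearts of 1 week were compared here. The authors aligned read pairs with STAR to mm10 (per the submitters' processing notes), collapsed the transcripts of each gene and deposited raw counts of uniquely mapped reads lying fully within exons, with ambiguous regions excluded. Identifiers of 46574 among 47069 genes were found in GENCODE M21 (GRCm38), the source of names, positions, GC content and transcripts.

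Genes whose count exceeded 5 in every heart compared were TMM-scaled and tested in R 4.3.3 with edgeR 4.0.16 (quasi-likelihood F-test, genotype alone, Benjamini-Hochberg, threshold 0.05), with DESeq2 1.42.0 as an alternative. The tests were checked on simulated counts. The standard error is the fold change divided by the square root of F. List levels are summed CPM, compared by exact permutation. A heart's difference is its log2 CPM (prior count 2) minus the WT mean, or the mean of the other WT hearts. The GC correction removed a trend of span 0.3 from each library.

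Named are *Lmna* and the lamina list, the 10 smallest p in each direction without overlap, genes without overlap within 5 Mb of *Lmna* and the *Rps3a* family, 2 genes per function list, 5 genes furthest apart per heart, 8 genes called at both later ages and marker genes. *Ahsp*, *Net39*, *Cyr61* and *Ctgf* were not matched. The members and lists were chosen with earlier results of these data known. Leaving out *Lmna*-/- hearts 2 and 3 together was an alternative chosen after seeing the data, as were the genes apart at all ages and those with reads in 1 genotype. Values of some genes under these rules are not reported here.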

Additional observations from a re-analysis of the deposited data

Results flagged for a closer look

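*Rps3a3* lay outside the genes compared at 1 week and was read at a mean of 53.4 ± 17.8 CPM (SD, n = 3) in *Lmna*-/- libraries against 0.208 CPM in WT libraries.

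Of the genes whose genotype effect differed between 1 and 2 weeks by the interaction test (edgeR, Benjamini-Hochberg), the log2 fold change at 2 weeks minus that at 1 week was 3.92 for *Nr4a2*, 2.85 for *Gem*, 1.74 for *Ogdhl*, 1.12 for *Errfi1*, 1.99 for *Fosl2*, 3.12 for *Gm24187* and -2.12 for *Rmrp*, with an adjusted p of 0.0035 for *Nr4a2* and 0.0394 for the others. At 1 week their log2 fold changes lay between -0.27 and 0.59. *Nr4a2* and *Fosl2* are immediate early genes, and WT heart 2 held the highest of the 6 values at 1 week for both (4.03 and 43.5 CPM).

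Between 1 week and 1 month the corresponding differences were 5.02 for *Myh7*, 1.20 for *Slc6a6*, the taurine transporter, -3.60 for *Ces1d*, -1.66 for *P2ry1*, a purine receptor, -1.17 for *Apba3*, -0.91 for *Sdr39u1* and -0.90 for *Fkbp4*, a chaperone partner, with adjusted p values of 0.0349 to 0.0494 (edgeR, Benjamini-Hochberg). *P2ry1* was at 5.79, 4.78 and 5.26 CPM in *Lmna*-/- and at 3.82, 3.66 and 3.86 CPM in WT hearts at 1 week.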

How the results depend on the processing

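The count of 0 genes called at 1 week became 105 without a filter on counts, 1 with filterByExpr (*Rps3a3*), 2 in a fit over 18 hearts, 3 with DESeq2 and 79 without *Lmna*-/- hearts 2 and 3, where heart 1 alone stood against 3 WT hearts and was assumed to vary as they do, so that the 79 describe 1 heart, and it was 0 to 4 when each heart was left out. Of the 105, 102 were higher in *Lmna*-/-, 91 were highest in *Lmna*-/- heart 2 and 10 in replicate 3. For *Lmna* the log2 fold change was -1.47 without a filter, -1.45 over 18 hearts and -1.46 with DESeq2, past the threshold, -1.45 with filterByExpr, not past it, -2.28 in heart 1 alone against WT, and -1.96 to -1.21 with a heart left out. Genes without overlap numbered 487 with library size alone and 1774 to 2610 with a heart left out, where fewer hearts overlap less. Calls of 2 weeks in the same direction made up 61.7% with library size alone, 60.8% with the GC correction and 51.0% to 75.1% with a heart left out. The shares over all genes were 54.8%, 53.6% and 53.3% to 58.9%. Calls of 1 month made up 45.9% to 66.7% with a heart left out, against 48.9% to 54.4% of all genes. The interaction called 423 and 536 genes without a filter, 22 and 80 over 18 hearts and, against 2 weeks, 4 with robust fitting. With a heart left out it called 4 to 180 and 0 to 14, the 180 without *Lmna*-/- heart 1. The marker lists without overlap went from 0 to 5 without *Lmna*-/- heart 1 and were 0 to 5 over all hearts left out. The causes were not tested. Same-numbered hearts correlated at -0.43 to 0.10 and hearts of different number at -0.272 to 0.415. So few pairs cannot show whether the numbers paired the hearts, and the replicate block called 0 genes. The 19 genes named for their small p and lack of overlap were picked in these same hearts. Their direction could therefore hardly reverse when a heart was left out, and a kept direction is no support for them. Of 323 alternative values for 19 named genes 12 passed the threshold and 0 reversed.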
